A study of Homo sapiens with 6 samples.

Results

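CD24, SPP1 and PROM1 are genes used as markers of liver progenitor cells and bile duct epithelium. They were taken by name as 3 rows of the authors' deposited table, which lists 1998 genes, and all 3 were found. They were read against albumin (ALB), the main secreted product of hepatocytes. The cells were HepG2 from ATCC, an established human liver cancer line. They received a control siRNA (siCon, labelled siControl) or an siRNA against H19 (siH19), a long noncoding RNA, and RNA was taken 48 h later, with 3 libraries in each group. Total RNA was depleted of ribosomal RNA before sequencing. The comparison asks which transcripts change when H19 is targeted in hepatic cells. No genotype difference or other agent separates the groups in the labels, and a single tumor line limits both groups as a model of liver.

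Only genes with an adjusted p under 0.05 are in the authors' deposited table, so 100% of its rows are called and the presence of all 3 members says nothing about them as a set. Of its rows 44.7% (893) were higher and 55.3% (1105) were lower in siH19. The 3 libraries of a group stand in the authors' deposited table as 1 combined value, so no value per library and no overlap between groups can be shown here. An error printed with ± is the authors' standard error (SE) of a log2 fold change over 3 against 3 libraries. The labels do not say whether libraries came from separate cultures, so these SEs and adjusted p-values may cover technical spread only. Depth per library is unknown, and the level of H19 itself was not analysed here. Mean normalized counts in the authors' deposited table ran from 12.3 to 240657, with a median of 639.8.

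In the developing liver, hepatoblasts give rise both to hepatocytes, which secrete albumin, and to cholangiocytes, which line the bile ducts. After some injuries, cells at the ends of the biliary tree expand as a ductular reaction and carry markers of both fates. CD24 is a short, heavily glycosylated protein held to the membrane by a glycosylphosphatidylinositol (GPI) anchor, and SPP1 (osteopontin) is a secreted phosphoprotein that binds integrins and CD44. PROM1 (CD133) is a membrane-spanning glycoprotein of cell protrusions. All of these are made in bile duct epithelium and have been used to mark progenitor-like cells in liver tumors.

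All 3 markers were higher and albumin was lower in cells given the H19 siRNA. CD24 rose most, 2.30-fold, followed by SPP1 at 1.44-fold and PROM1 at 1.32-fold, while albumin fell to 0.629 of its control level, each from the log2 fold change in the authors' deposited table. Against albumin, CD24 thus gained 3.66-fold, SPP1 2.30-fold and PROM1 2.10-fold.

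The start regions of these genes are shown because the markers moved one way and albumin the other. Each line gives the 100 bases before the most upstream RefSeq start (build GRCh38.p14), 5′ to 3′ on the gene's strand. Capitals mark matches on either strand to GGGCGG (bound by Sp1-type factors), CCAAT (bound by NF-Y) or TATAAA (the core promoter box).
CD24, chr6:106975628-106975727, minus strand: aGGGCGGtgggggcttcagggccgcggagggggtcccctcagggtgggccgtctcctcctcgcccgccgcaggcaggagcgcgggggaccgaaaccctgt
SPP1, chr4:87975614-87975713, plus strand: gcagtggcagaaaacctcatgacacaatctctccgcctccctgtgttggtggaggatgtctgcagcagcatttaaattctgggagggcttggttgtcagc
PROM1, chr4:16084024-16084123, minus strand: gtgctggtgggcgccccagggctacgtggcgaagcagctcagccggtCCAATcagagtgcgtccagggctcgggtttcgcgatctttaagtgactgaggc
ALB, chr4:73404187-73404286, plus strand: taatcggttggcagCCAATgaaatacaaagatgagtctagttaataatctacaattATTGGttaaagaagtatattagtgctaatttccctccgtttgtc

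The windows at these starts varied in base composition. Over 250 bases before to 50 after the start, 66.7% of the CD24 bases were G or C, against 60.7% for PROM1, 47.7% for SPP1 and 33.3% for ALB, with a median of 58.7% over 35116 RefSeq windows and of 65.0% over the 2346 windows of listed genes. The CD24 window held 25 CpG pairs, that of PROM1 18, that of SPP1 6 and that of ALB 4. Within the whole window CCAAT was found in PROM1 and at 2 places in ALB, and in 34.6% of all windows, while GGGCGG was found in CD24 and in 45.0% of all windows. At their other starts the pattern differed: the next 2 PROM1 windows held GGGCGG, with 68.7% and 69.0% G or C, and the window of the third CD24 start held both of these motifs. TATAAA, in 11.5% of all windows, was in no window of these 4 genes. RefSeq gives CD24 3 starts and PROM1 4, and the table does not say which of them were used in HepG2.

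CD24 stood at a log2 normalized count of 9.57 in siCon and 10.77 in siH19 in the authors' deposited table, or counts of 760 and 1746. The authors' deposited table gave a log2 fold change of 1.20 ± 0.09, and its adjusted p was written as 0, which means below the smallest value shown in that table, 1e-06. At 1 SE to either side this is a 2.16-fold to 2.45-fold rise. The change was the 6th largest of the 893 rises, and CD24 was 1 of the 35 genes (1.75% of rows) at least 2-fold higher. All 5 genes with larger rises had lower mean counts: SYT11 (1.96), CNN1 (1.67), GLCCI1 (1.58), SOCS2 (1.40) and NGFR (1.32) had log2 fold changes above that of CD24 in the authors' deposited table at mean counts of 42.7 to 343. Among the 334 higher genes whose mean count lay within 2-fold of that of CD24 (1250), its rise was the largest, beside a median of 0.355.

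CD24 has copies elsewhere in the genome whose reads may be hard to separate from it. Of the 3 copies among the GENCODE release 29 transcripts, CD24P4 matched the longest CD24 transcript best. Their local alignment covered all 243 annotated bases of CD24P4, out of 2513 in that CD24 transcript. Genome sequence around the annotated copy was not compared, so any likeness beyond these bases is unknown. The alignment matched at 99.2% of its positions (gaps counted as mismatches), with an identical run of 113 bases, longer than a 76-cycle read. CD24P2 matched at 89.0% and CD24P1 at 80.2%, with identical runs of 52 and 19 bases. How multi-mapping reads were handled is not stated in the labels, and where CD24 reads were placed on hg19 could not be checked. The CD24 count may thus include or lack such reads, and the part this plays in its change was not tested.

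SPP1 was the most abundant of the markers. The authors' deposited table gave a log2 normalized count of 12.58 in siCon and 13.11 in siH19, or counts of 6123 and 8841. Its log2 fold change in the authors' deposited table was 0.53 ± 0.09, with an adjusted p written as 0. SPP1 ranked 59th of 1998 genes by mean count (7487) and 325th of 893 by size of rise. Rises at such high counts were mostly smaller. Of the 45 higher genes within 2-fold of its mean count, SPP1 was the 10th by rise. Their median rise was 0.31 in the authors' deposited table, and lower genes near this level were not ranked.

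PROM1 had the lowest level and the smallest change. In the authors' deposited table its log2 normalized count was 8.00 in siCon and 8.41 in siH19, or counts of 256 and 340. The log2 fold change was 0.40 ± 0.12 and the adjusted p was 0.00987 in the authors' deposited table. At 1 SE to either side the rise was 1.21-fold to 1.43-fold, and the change was 3.33 times its SE, against 13.3 times for CD24 and 5.89 times for SPP1. Among the 316 higher genes within 2-fold of its mean count (298), PROM1 ranked 225th, and their median rise was 0.49 in the authors' deposited table. In GENCODE release 29 the PROM1 gene overlaps FGFBP2 on the same strand, so reads in the shared stretch could count for either.

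Albumin stood at a log2 normalized count of 15.66 in siCon and 15.00 in siH19 in the authors' deposited table, or counts of 51776 and 32768. Its log2 fold change there was -0.67 ± 0.07 in the authors' deposited table, with an adjusted p written as 0. By mean count albumin ranked 4th of 1998, so this defining hepatocyte marker was among the most abundant listed transcripts. In a bulk sample, fewer cells making a transcript and less of it per cell cannot be told apart, for the markers as for albumin.

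**Figure D1:**
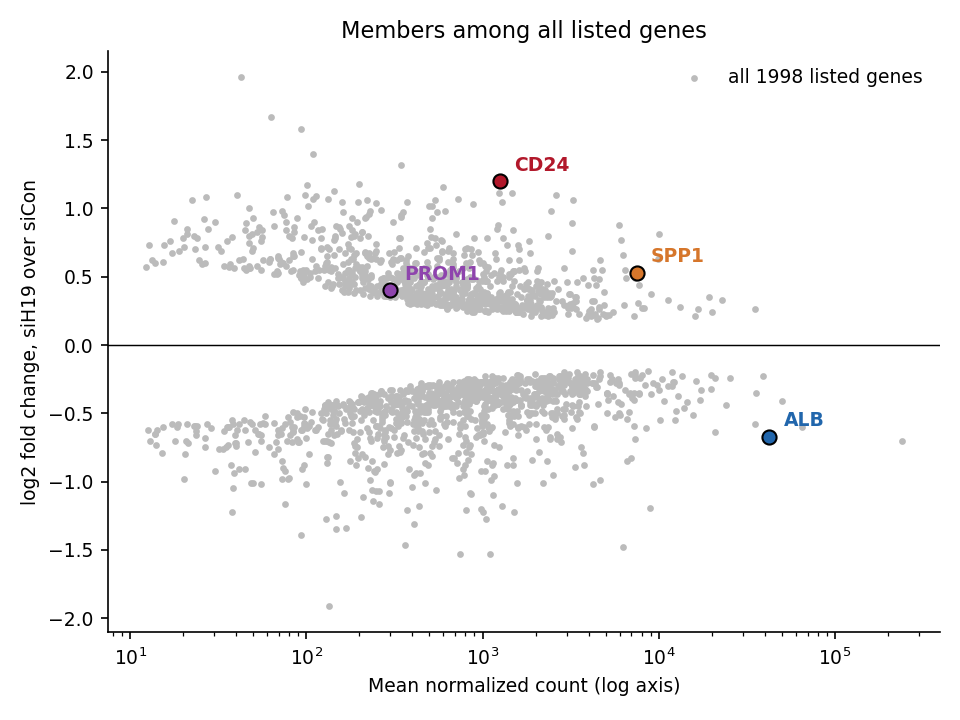
Mean normalized count (x, log axis) and log2 fold change of siH19 over siCon (y) for the 1998 listed genes (grey), with CD24, SPP1, PROM1 and ALB in colour. CD24 (1.20) lies above all other higher genes near its level, PROM1 (0.40) lies among many genes, and ALB (-0.67) lies below 0 at the far right.

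The markers differed among themselves. The rise of CD24 exceeded that of SPP1 by 0.67 ± 0.127 and that of PROM1 by 0.80 ± 0.15 (log2 units, with an SE that treats the errors of the genes as independent). SPP1 and PROM1 differed by 0.13 ± 0.15, less than that SE. Genes in the same libraries share error, so these differences were not tested. Set against albumin the log2 differences were 1.87 ± 0.114 for CD24, 1.20 ± 0.114 for SPP1 and 1.07 ± 0.139 for PROM1. Transthyretin (TTR), a carrier of thyroid hormone, and the fetal liver protein AFP give other references. TTR was at -0.88 ± 0.09 and AFP at -0.35 ± 0.07 in the authors' deposited table. Each marker rose against either of them, PROM1 by 1.28 against TTR and by 0.75 against AFP.

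Levels of different genes were compared per kilobase (kb) of the longest protein-coding transcript in GENCODE release 29: 2.513 kb for CD24, 1.581 kb for SPP1, 4.349 kb for PROM1 and 2.263 kb for ALB. In siCon the normalized count per kb was 22879 for ALB, 3873 for SPP1, 302 for CD24 and 58.9 for PROM1. In siH19 it was 14480 for ALB, 5592 for SPP1, 695 for CD24 and 78.2 for PROM1. The order was the same in both groups, and the gaps to albumin were narrower in siH19. Albumin exceeded SPP1 5.91-fold per kb in siCon and 2.59-fold in siH19. Over CD24 it stood 75.6-fold and 20.8-fold higher, and over PROM1 389-fold and 185-fold. Summed per kb, the 3 markers came to 18.5% of the albumin level in siCon and 44.0% in siH19, most of it SPP1 (16.9% and 38.6%).

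The distance between the markers shifted too. SPP1 exceeded CD24 12.8-fold per kb in siCon and 8.05-fold in siH19, and CD24 exceeded PROM1 5.14-fold and 8.88-fold. No spread of a level over libraries is in the authors' deposited table, so whether neighbours in this order differ beyond it was not tested. With the median length of the GENCODE basic coding transcripts the order was the same, but the values of CD24, whose transcripts vary in length, moved. Albumin was then 33.9-fold above CD24 in siCon and 9.33-fold in siH19. SPP1 was then 4.39-fold and 2.76-fold above CD24, and CD24 14.4-fold and 24.8-fold above PROM1. The 3 markers then summed to 16.1% of albumin in siCon and 40.7% in siH19. Of albumin, SPP1 was 12.9% and 29.5%, and CD24 2.95% and 10.7%.

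**Figure D2:**
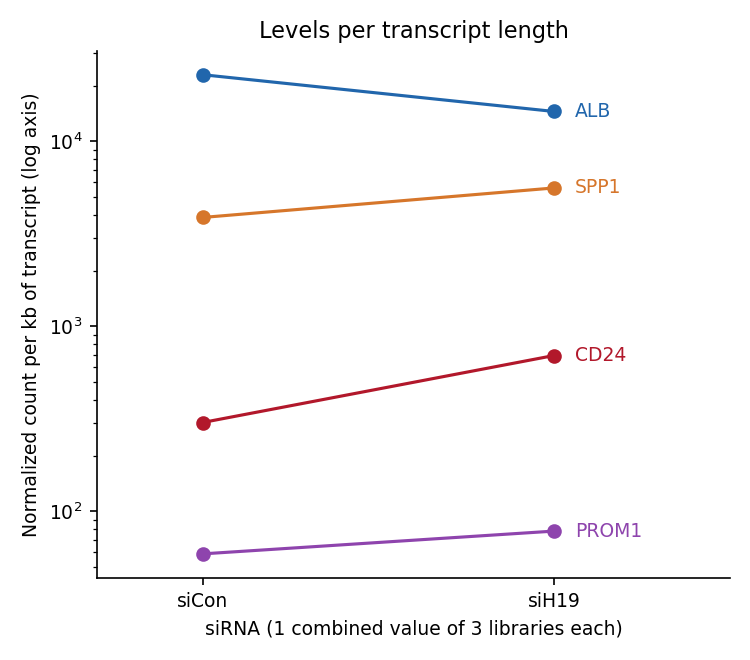
Normalized count per kb of the longest coding transcript (y, log axis) in siCon and siH19 (x), 1 combined value of 3 libraries each and no error bar. The lines of CD24, SPP1 and PROM1 slope up and that of ALB slopes down, from 22879 to 14480.

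Of the other progenitor and bile duct genes, 5 were higher with the 3 markers and 2 were lower. Of 35 symbols in a marker list, 10 were in the authors' deposited table, 8 of them higher and 2 lower, with a median log2 fold change of 0.405 beside -0.27 over all listed genes, of which 44.7% were higher. The list holds CD24, SPP1 and PROM1, so its count includes them. The other 25 symbols, among them SOX9, KRT7, KRT19 and EPCAM, had no row used here, and their levels are unknown.

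SOX4, a transcription factor of biliary development, followed CD24 with log2 counts of 10.23 and 10.96 and a change of 0.73 ± 0.12 in the authors' deposited table. FOXJ1, a factor for motile cilia, had 5.79 and 6.33 (0.54 ± 0.20, adjusted p = 0.0482) in the authors' deposited table, at a low mean count of 68.0. The receptor NOTCH2, needed for duct formation, was at 0.41 ± 0.09, the keratin KRT23 at 0.40 ± 0.08 and DCDC2, a protein of the primary cilium in cholangiocytes, at 0.39 ± 0.11 in the authors' deposited table. Their changes were of the size of that of PROM1. ONECUT2, a factor of hepatocyte and biliary development, went the other way, from 9.62 to 8.93 (-0.69 ± 0.13) in the authors' deposited table. ANXA4, an annexin enriched in ducts, also fell, from 11.10 to 10.66 (-0.44 ± 0.10) in the authors' deposited table. Of the 8 higher genes, 2 (CD24 and SOX4) changed at least 1.5-fold, a share near the 28.2% of all 893 higher genes that did.

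**Figure D3:**
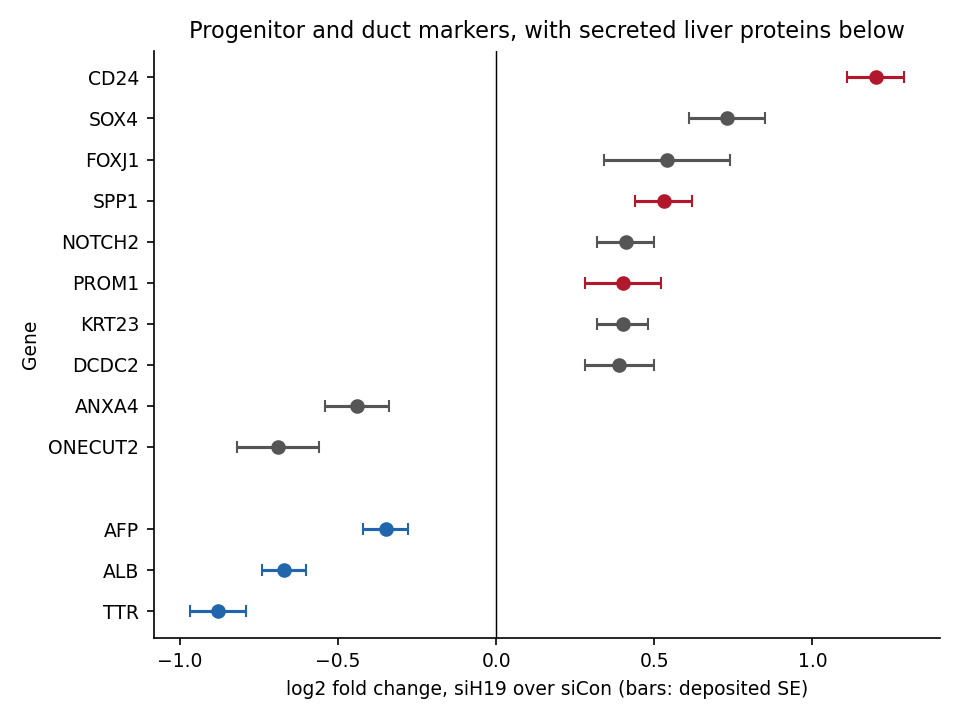
Log2 fold change of siH19 over siCon (x, bars are the deposited SE) for the 10 listed progenitor and duct genes, with CD24, SPP1 and PROM1 in red, and for AFP, ALB and TTR in blue. 8 of the 10 lie right of 0, ANXA4 and ONECUT2 lie left, and the 3 secreted proteins lie left.

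Albumin moved with the other hepatocyte genes. Of 40 symbols, ALB among them, 26 were in the authors' deposited table, 25 lower and 1 higher. Over all rows 55.3% were lower, with a median of -0.27. The median of the list was -0.635, and ALB at -0.67 lay near it. G6PC, which releases glucose (-1.91 ± 0.17), KNG1, a kininogen (-1.16 ± 0.20), and FABP1, a fatty acid carrier (-1.02 ± 0.21), changed most in the authors' deposited table. The 1 higher gene was the urea cycle enzyme CPS1 (0.61 ± 0.10 in the authors' deposited table), named after its value was seen. Its rise was larger than those of SPP1 and PROM1.

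Of 27 markers used for stem-like cells in liver tumors, 6 were listed, 3 higher and 3 lower, with a median of 0.025, and 44.7% of all rows were higher. CD24 and PROM1 were joined on the higher side by ALCAM, an adhesion molecule (1.05 ± 0.09 in the authors' deposited table). The adhesion molecule ICAM1 (-0.71 ± 0.07), the drug exporter ABCG2 (-0.43 ± 0.10) and AFP were lower in the authors' deposited table. ALCAM was also close to CD24 in level, with log2 counts of 9.71 and 10.76 in the authors' deposited table.

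Of 27 symbols for receptors and partners of osteopontin, 5 were listed, 2 higher and 3 lower, with a median of -0.34, a split near that of all rows (55.3% lower, median -0.27). ITGAV, the integrin alpha chain that pairs with several beta chains to bind osteopontin, was higher (0.63 ± 0.10), as was TGM2 (0.49 ± 0.11), which crosslinks it, in the authors' deposited table. MMP3, a protease that cleaves it, was lower (-0.85 ± 0.19), as was FAM20C (-0.45 ± 0.16), the kinase that phosphorylates it, in the authors' deposited table. The scaffold protein SLC9A3R1 was at -0.34 ± 0.08 in the authors' deposited table. CD44 and the integrin beta chains of the list had no row used here.

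For CD24, the list of its partners and of GPI anchor synthesis had 5 of 35 symbols in the authors' deposited table. Of these, 4 were higher and 1 was lower, with a median of 0.45, beside 44.7% higher and a median of -0.27 over all rows. So few genes were not tested as a set. The adhesion molecule L1CAM, a binding partner of CD24, was highest (0.95 ± 0.11), followed by GPLD1, which cleaves GPI anchors (0.54 ± 0.14), in the authors' deposited table. PGAP1, which remodels the anchor (0.45 ± 0.14), and PIGT, a subunit of the complex that attaches it (0.24 ± 0.08), were higher too in the authors' deposited table. PIGV, which adds a mannose to the anchor, was lower (-0.47 ± 0.13) in the authors' deposited table.

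For PROM1, a list of partners and microvillus proteins had 4 of 22 symbols in the authors' deposited table. Of these, 2 were higher and 2 lower, with a median of -0.025, beside 44.7% higher and a median of -0.27 over all rows. Beta-catenin (CTNNB1, 0.37 ± 0.09) and villin (VIL1, 0.29 ± 0.11) were higher in the authors' deposited table. The actin bundler ESPN (-0.77 ± 0.12) and SLC9A3R1 were lower in the authors' deposited table. The shifts of CTNNB1 and VIL1 were close in size to that of PROM1.

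Notch and YAP signalling direct cells to the biliary fate, and the split of their listed genes was near that of all rows (55.3% lower, median -0.27). In the Notch list 6 of 28 symbols were in the authors' deposited table, 2 higher and 4 lower, with a median of -0.28. The largest changes there were those of LFNG, a glycosyltransferase that modifies Notch receptors (0.87 ± 0.14), of NOTCH2, and of ADAM10, the protease that cleaves Notch at the surface (-0.41 ± 0.12), in the authors' deposited table. In the list of YAP and TEAD genes 7 of 28 symbols were listed, 3 higher and 4 lower, with a median of -0.27. AMOTL1, which binds YAP (0.69 ± 0.22), CRIM1 (-0.43 ± 0.08) and the receptor AXL (0.35 ± 0.10) had the largest changes in the authors' deposited table. The mean count of AMOTL1 was only 18.8, near the lowest of all rows (12.3), and its SE was as large as any there.

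Genes used as markers of other liver cell types were few and lower in the authors' deposited table. All libraries came from HepG2, a single line, so these genes are not read here as other cell types being present. For stellate cells and fibroblasts 1 of 14 symbols was listed, ACTA2 (-0.83 ± 0.11), and for endothelium 1 of 13, LYVE1 (-0.98 ± 0.20), in the authors' deposited table. For Kupffer and blood cells 2 of 17 were listed, CD68 (-1.21 ± 0.11) and LYZ (-0.64 ± 0.08), in the authors' deposited table. The summed normalized count of the listed markers went from 861 to 484, from 104.7 to 52.7 and from 26484 to 16759, in that order. These markers thus moved opposite to CD24, SPP1 and PROM1, as did many genes, since 55.3% of all rows were lower. Their part in the result was not tested. Which of the remaining markers are at 0 is unknown, since the table holds called genes only.

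**Figure D4:**
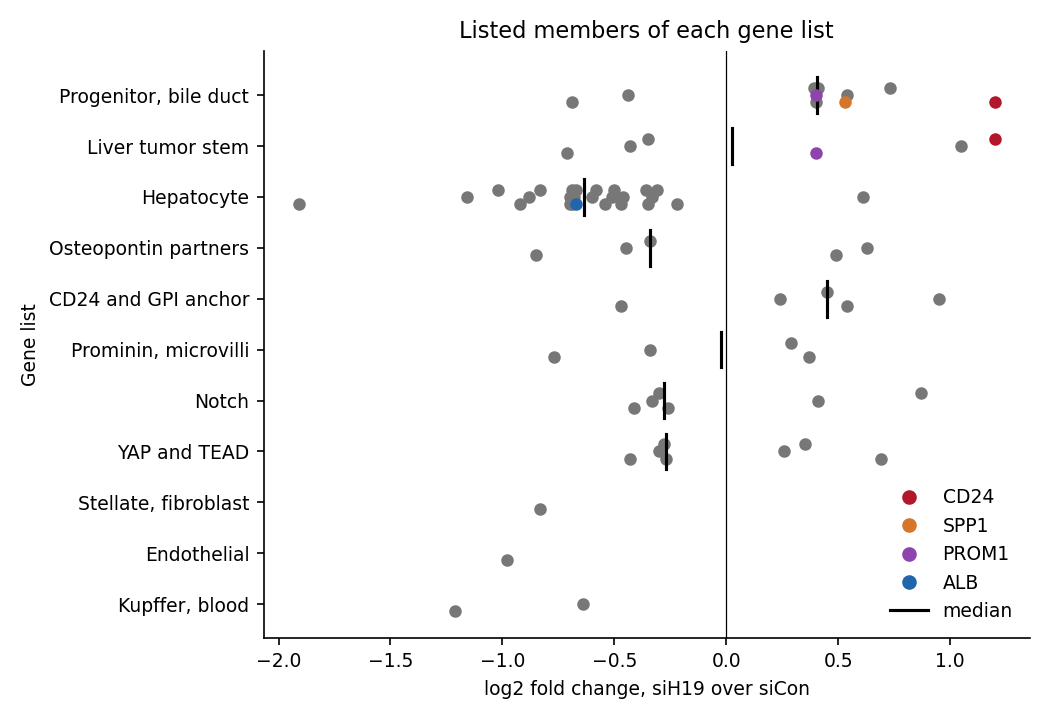
Log2 fold change of siH19 over siCon (x) of every listed member of each of the 11 gene lists (y), with a black bar at the median of lists with more than 2 listed members. CD24, SPP1, PROM1 and ALB are coloured, and the hepatocyte points lie left of 0 except 1, CPS1 (0.61).

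The genes most like each marker were sought over the 2 deposited group values, by Euclidean distance in log2 units among all listed genes. Nearest to CD24 were the adhesion molecules MCAM (9.62 and 10.74, distance 0.058) and ALCAM (9.71 and 10.76, distance 0.14), and POLR3E, an RNA polymerase subunit (9.75 and 10.63, distance 0.228), in the authors' deposited table. SPP1 had SAT1, an enzyme of polyamine breakdown (12.57 and 13.07, distance 0.041), FILIP1L (distance 0.10) and the Wnt feedback gene NKD1 (distance 0.171). PROM1 had the peptidase SCPEP1 (7.98 and 8.39, distance 0.028), and TMEM41A and the kinase WNK2 at 0.032 each. The nearest genes were farther from CD24 than from PROM1. With only 2 values per gene, this likeness is one of level and change together and no more.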

How the data were processed

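RNA-seq of 6 HepG2 libraries, 3 in each group, was used as 1 table of the whole series. The build hg19 and, with no role or order, DESeq2 1.0.0, Cufflinks 2.2.1 and STAR 2.5.0a are named in the submitters' processing notes. Annotation, strand use and multi-mapping are not stated in the labels. The authors deposited, per the file headers, the log2 count of each group, the log2 fold change and its SE. The mean count they deposited is a normalized signal, not whole reads. The q value deposited by the authors is an adjusted p-value, at most 0.0498, and is written as 0 for 287 genes. Fold changes equalled siH19 minus siCon within 0.01. Columns of other samples numbered 0.

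No test was added, as the table holds 1 value per group, so fold changes, SEs and adjusted p-values are the authors'. Computed here with Python 3.11.15 and pandas 2.3.3 were linear counts, differences against albumin, counts over 11 lists (272 symbols, 68 listed), distances between genes and levels per transcript length. Of these steps, only the list counts and medians and the search for the nearest gene were tested on simulated data. CD24 copies were aligned locally with Biopython 1.88. Promoter windows came from RefSeq (GRCh38.p14) and matched all 4 genes. Transcripts and overlaps came from GENCODE release 29, a build other than hg19, so its coordinates are not printed.

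The members and lists were chosen with earlier results of these data known. Named genes were the members, ALB, TTR and AFP, all listed progenitor genes, the 3 largest changes of each other list (all where 5 or fewer were listed) and the 3 nearest genes of each member. Genes with larger rises than CD24, and CPS1, were named after their values were seen. Depth per library is unknown. The alternatives were other centrings, other references than albumin and stricter selections of listed genes.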

Additional observations from a re-analysis of the deposited data

How the results depend on the processing

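Of 40 values recomputed under other settings, 21 stayed within their SE or, for counts, within 1.5-fold. No fold change or difference changed direction, but list counts had no direction to change. Every median or reference subtracted was below 0, so a higher marker could not reverse, and only the centred ALB values could. Taking the median hepatocyte gene in place of albumin moved none beyond its SE. The difference of the deposited group values equals the fold change within 0.01. That setting could hardly move a value and adds little to the 21. Centred on the median of all listed genes (-0.27), or of those at or above the median level (also -0.27), the log2 fold change was 1.47 for CD24, 0.80 for SPP1, 0.67 for PROM1 and -0.40 for ALB. These medians are over called genes, so they are no neutral zero. Against TTR in place of albumin the changes were 2.08 for CD24, 1.41 for SPP1 and 1.28 for PROM1, and against AFP 1.55, 0.88 and 0.75. Of the progenitor list, 2 genes were higher and 1 lower among those changed at least 1.5-fold, 5 were higher without genes of another list, and 1 was lower at or above the median level. Of the hepatocyte list, 14 were lower at 1.5-fold or more. Transcript lengths were an alternative chosen after seeing the data: albumin over CD24 then fell from 75.6 to 33.9 in siCon and from 20.8 to 9.33 in siH19. No paired analysis was possible because the table gives 1 combined value per group, and leaving out single libraries was not run for the same reason. Unknown depth limits what can be said of the low-count genes, FOXJ1 among them.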

Other observations

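The few listed chromosomal neighbours of SPP1 and PROM1 were lower. Neighbours with no row used here are unknown. By gene positions in GENCODE release 29, matched by current symbol only, 4 genes within 1 Mb of SPP1 were in the authors' deposited table, and all 4 were lower while SPP1 was higher. The nearest, ABCG2, lies 106.8 kb away and was at -0.43 ± 0.10 in the authors' deposited table. HSD17B11, a steroid dehydrogenase, was at -0.28 ± 0.10, HERC3 at -0.46 ± 0.15 and FAM13A at -0.63 ± 0.16 in the authors' deposited table. The bone matrix genes of the same family as SPP1 (IBSP, DMP1, DSPP and MEPE) had no row used here. PROM1 had 1 listed gene within 1 Mb, the RNA-binding protein CPEB2, 892.9 kb away and lower (-0.86 ± 0.17 in the authors' deposited table). CD24 had none. Albumin's only listed gene within that distance was AFP, 9.7 kb downstream on the same strand, and both were lower. Of all rows 55.3% were lower, so 5 lower genes beside SPP1 and PROM1 are a description and were not tested. These genes were chosen by position after the table had been seen.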
